A study of Homo sapiens with 15 samples.

Results

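The plasminogen activators, their receptor and a set of serpin inhibitors were examined in the PE/CA-PJ41 line, an immortalised human oral squamous carcinoma cell line. The 9 genes were PLAU, PLAT, PLAUR, SERPINE2, SERPINB2, SERPINB3, SERPINB4, SERPINB5 and SERPINB13, chosen by name out of 19483 genes named on the microarray and matched through the RefSeq accession that the scanner output gives for each probe. They had 10 probes among 42405 non-control probes, with 2 probes for PLAU and 1 for each of the others. CYGB+ cells carried the pCMV6-Neo plasmid with the human cytoglobin cDNA, integrated in stable clones picked with cloning rings under G418, and the array cells came from the single clone LST421 per the study's methods. NCE cells, also called MOCK, are non cytoglobin expressing cells of the same line that carried the empty vector per the labels, although the study also calls its NCE control un-transfected, and for these the sources used here do not say whether the cells were 1 clone. RNA was extracted on 3 separate occasions after a day in supplemented medium, and each of the 3 biological replicates was hybridised to 3 arrays for NCE (9 arrays) and to 2 for CYGB+ (6 arrays).

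Urokinase (PLAU) and tissue plasminogen activator (PLAT) are serine proteases that cut plasminogen to plasmin, which degrades fibrin and several matrix proteins. PLAUR anchors urokinase at the cell surface. SERPINE2 (protease nexin) and SERPINB2 (plasminogen activator inhibitor of the clade B family) are serpins that trap urokinase or related proteases, while SERPINB3 and SERPINB4 (the squamous cell carcinoma antigens), SERPINB5 (maspin) and SERPINB13 (headpin) are clade B serpins of squamous epithelium. Plasminogen activation is widely studied in oral squamous carcinoma for its part in invasion.

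SERPINB3 and SERPINB4 arose by duplication, and their probes have to tell apart transcripts of closely related genes. The 250 bases before each start site, taken from RefSeq (GRCh38.p14), are shown to make that relation visible, 5′ to 3′ on the gene's strand, with the bases that differ in capitals. SERPINB3 lies at chr18:63661894-63662143 on the minus strand and SERPINB4 at chr18:63644257-63644506 on the minus strand.
SERPINB3: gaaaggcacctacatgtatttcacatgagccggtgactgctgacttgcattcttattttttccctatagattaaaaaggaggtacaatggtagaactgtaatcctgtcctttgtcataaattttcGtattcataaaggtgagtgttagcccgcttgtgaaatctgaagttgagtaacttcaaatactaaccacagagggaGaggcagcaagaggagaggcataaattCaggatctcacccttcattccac
SERPINB4: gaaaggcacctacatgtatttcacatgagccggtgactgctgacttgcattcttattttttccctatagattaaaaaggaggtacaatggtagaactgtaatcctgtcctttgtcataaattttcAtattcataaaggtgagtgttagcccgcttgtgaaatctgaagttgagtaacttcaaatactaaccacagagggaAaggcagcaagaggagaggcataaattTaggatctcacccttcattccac
The windows differed at 3 of 250 bases and were 98.8% identical. The upstream window of SERPINB2, at chr18:63887455-63887704 on the plus strand, is shown because this gene differed in the paired analysis below, with a match to the AP-1 type motif TGANTCA in capitals.
SERPINB2: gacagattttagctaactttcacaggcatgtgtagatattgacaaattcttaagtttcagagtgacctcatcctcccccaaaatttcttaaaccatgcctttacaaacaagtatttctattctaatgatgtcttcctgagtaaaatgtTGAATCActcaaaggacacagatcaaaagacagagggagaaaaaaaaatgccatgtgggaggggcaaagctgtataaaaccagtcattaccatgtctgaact
The match began 102 bases before the start site. TGANTCA reads the same on both strands and was found in 1 window each of SERPINB2, SERPINB5, SERPINB13 and PLAUR, that is in 4 of the 10 windows of these genes that were read, and in 6.57% of 35116 upstream windows of all genes. No window of PLAT was used here, and a match of letters does not show a binding site.

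The cytoglobin probe did not separate the groups. Its log2 values were 11.85, 12.15 and 11.96 in NCE replicates 1 to 3 and 11.38, 12.44 and 11.97 in CYGB+ replicates 1 to 3, a difference of −0.05 ± 0.25 (SE, adjusted p = 0.911, limma). The probe was well above background on all 9 NCE arrays, although NCE cells are described as non cytoglobin expressing. What gave this signal was not tested. Whether this probe lies within the transfected cDNA was not tested either, so the directions below rest on the labels, and the groups are the arrays labelled NCE and the arrays labelled CYGB+. Of the 9 NCE arrays 8 were on 1 slide, and the remaining one, a repeat of replicate 1, shared the other slide with all 6 CYGB+ arrays, so that slide and group can hardly be told apart for most values. The first array of CYGB+ replicate 1 stood apart from the rest. Between 47.3% and 56.8% of probes were well above background per array. All 10 squamous epithelium markers were tested (KRT5, KRT14, KRT6A, KRT16, KRT17, TP63, CDH1, EPCAM, DSG3 and SFN), with summed signals from 68270 to 77381 units in NCE and from 70563 to 90314 in CYGB+ replicates, and 1 of them, the keratin KRT6A, was lower in CYGB+ (−0.46, adjusted p = 0.0448, and −0.05 with slide as a block). With slide as a block the keratin KRT16 was called lower instead (−0.69, adjusted p = 0.0393), and with the replicate number as a block KRT14 was called higher (0.76, adjusted p = 0.0160) and EPCAM lower (−0.47, adjusted p = 0.0403). PTPRC, PECAM1, VWF, COL3A1, DCN and PDGFRB, which define leukocytes, endothelium and fibroblasts, were not well above background on most arrays of either group. Of the other markers of leukocytes and endothelium, CD14, CD68 and CDH5 were measured and not called, with differences of −0.46, 0.22 and 0.05.

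Of the 10 probes 9 were well above background on over 50% of the arrays of at least 1 group and were tested, and 1, PLAT, passed an adjusted p of 0.05 (limma on the 6 replicate means, adjusted over 22008 probes). Over all tested probes 10.9% were called, 5.57% higher and 5.38% lower in CYGB+, so the share called among these genes was close to the background. None was called higher, and 1, SERPINB3, was higher at an unadjusted p under 0.05. The replicate values of the 2 groups did not overlap for PLAT and SERPINE2, and for SERPINB3, which entered the test only through CYGB+, where it was higher; they did not overlap for 34% of all tested probes. All levels are log2 green signals after background correction and quantile normalisation, and all differences are CYGB+ minus NCE on that scale.

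**Figure D1:**
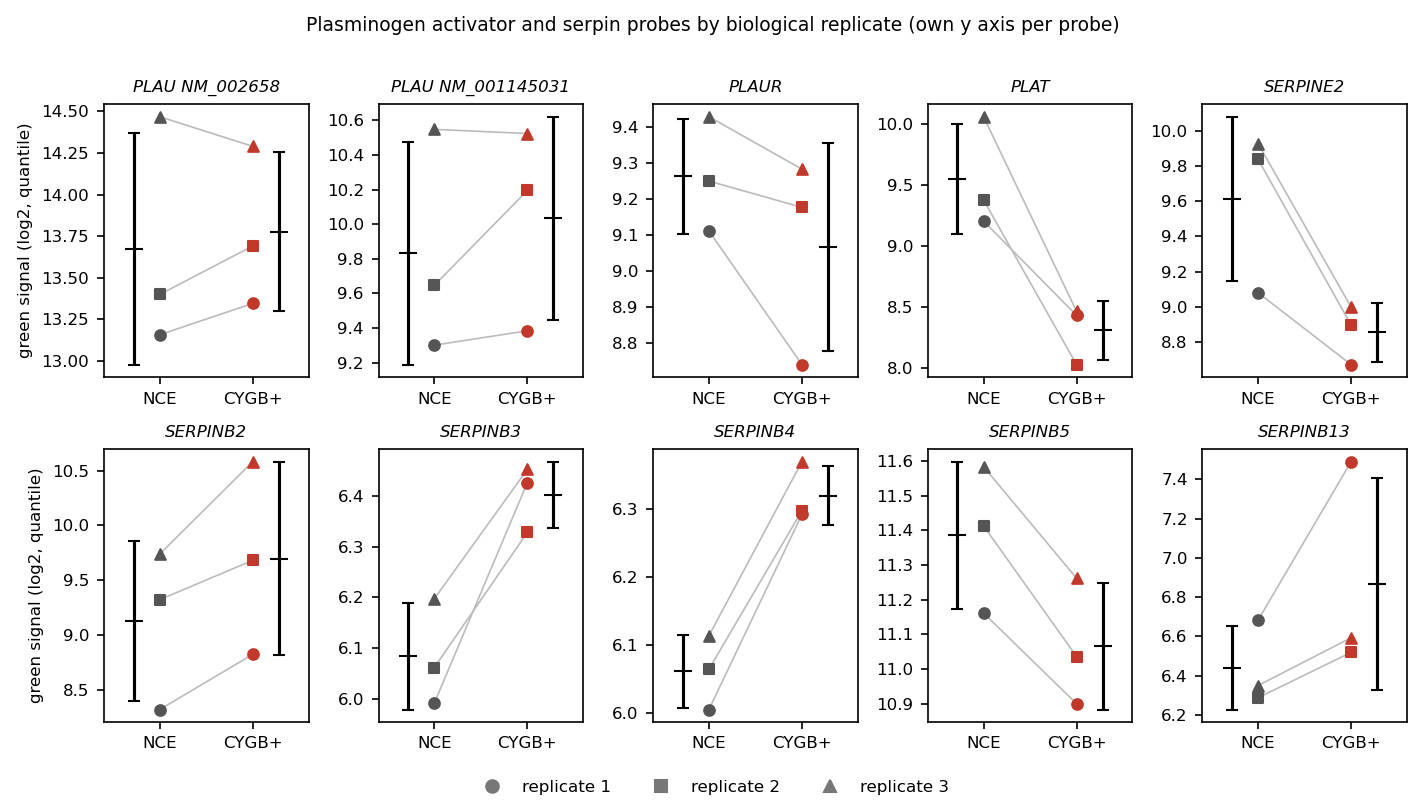
Log2 green signal of the 10 probes in each biological replicate, with a separate vertical axis for each probe; grey symbols are NCE, red symbols CYGB+, grey lines join replicates of the same number, and bars give the mean ± SD (n = 3). PLAT and SERPINE2 sat lower in every CYGB+ replicate, while for both PLAU probes and SERPINB2 the spread over replicates was wider than the gap between groups.

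PLAT, the activator best known from fibrin clots, was lower in CYGB+. Its probe measured 9.21, 9.38 and 10.06 in NCE replicates 1 to 3 and 8.43, 8.03 and 8.47 in CYGB+ replicates 1 to 3. The lowest NCE replicate was above the highest CYGB+ replicate, and NCE replicate 3 stood above the other two. PLAT fell by 1.24 ± 0.23 (SE) on the log2 scale, which is 2.36-fold lower (adjusted p = 0.0209, limma), with a 95% confidence interval from −1.79 to −0.69. In bulk RNA such as this, fewer cells that make a transcript and less transcript per cell cannot be told apart. All 9 NCE arrays, from 9.03 to 10.37, were above all 6 CYGB+ arrays, from 8.00 to 8.66. The NCE array on the shared slide read 9.34, against 8.43 for CYGB+ replicate 1 on that slide, a difference of −0.91.

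The lower PLAT level remained in size when slide was a term, but not past the threshold. With slide as a block the difference was −1.16 ± 0.35 (SE, adjusted p = 0.0988, limma on 15 arrays, where 3.28% of probes were called), and within the shared slide it was −1.03. Both depend on 1 NCE array of that slide, from replicate 1, so slide and replicate are mixed in them. The limma adjusted p was 0.0689 without NCE replicate 2, 0.0522 without CYGB+ replicate 2 and 0.0530 with no filter on dim probes. The methods' t-test gave PLAT an adjusted p of 0.114. Among the 5 fibroblast markers, COL1A2, a chain of type I collagen, was lower too (−1.32, adjusted p = 0.00308), while COL1A1 differed by 0.10 (adjusted p = 0.700) and COL3A1, DCN and PDGFRB were not well above background. The summed signal of the list ranged from 241 to 288 units in NCE and from 106 to 135 in CYGB+. This sum includes COL1A2 and is not a reading apart from it. The part of this in the PLAT result was not tested.

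PLAU, the urokinase gene, did not differ beyond its spread at either probe. The probe for NM_002658, printed as 10 spots per array, read 13.16, 13.40 and 14.47 in NCE and 13.35, 13.69 and 14.29 in CYGB+ replicates 1 to 3. The groups overlapped, and replicate 3 was the highest in both. The difference was 0.10 ± 0.37 (SE, adjusted p = 0.889, limma), with a 95% confidence interval from −0.77 to 0.97. The single-spot probe for NM_001145031 read 9.30, 9.65 and 10.55 in NCE and 9.38, 10.19 and 10.52 in CYGB+ replicates 1 to 3. It too was highest in replicate 3 of both groups, and its difference was 0.20 ± 0.38 (SE, adjusted p = 0.770, limma). This probe, with slide as a block, differed by 0.79 ± 0.58 (SE, adjusted p = 0.674, limma), and within the shared slide by 0.94. For replicate 1 alone on that slide it differed by 0.29. Within same-numbered replicates the first probe differed by 0.19, 0.29 and −0.18. The interval still allowed a change of more than 1.5-fold in either direction.

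PLAUR, the urokinase receptor, was slightly lower in each pair without passing the test. It read 9.11, 9.25 and 9.43 in NCE replicates 1 to 3. In CYGB+ replicates 1 to 3 it read 8.74, 9.18 and 9.28. The groups overlapped, since CYGB+ replicates 2 and 3 lay within the NCE range. The difference was −0.20 ± 0.16 (SE, adjusted p = 0.472, limma), and within the shared slide it was −0.07. For replicate 1 alone on that slide it was −0.40.

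SERPINE2, a secreted inhibitor of thrombin and urokinase, was lower in every CYGB+ replicate. It read 9.08, 9.84 and 9.93 in NCE and 8.67, 8.90 and 8.998 in CYGB+ replicates 1 to 3. The groups did not overlap, but NCE replicate 1 lay far closer to the CYGB+ values than the other two did. The difference was −0.76 ± 0.23 (SE), 1.69-fold, and missed the threshold (adjusted p = 0.0755, limma). With the replicate number as a block, SERPINE2 was called lower (−0.76 ± 0.14, SE, adjusted p = 0.0246, limma), and it fell in 3 of 3 pairs, by 0.41, 0.94 and 0.93. In that paired fit 13.5% of all tested probes were called, and it is not shown that equal numbers mark true pairs. Leaving out NCE replicate 1 widened the difference to −1.03 (adjusted p = 0.0225, limma). With any other replicate left out it did not pass (adjusted p from 0.109 to 0.236, limma). With CYGB+ replicate 1 taken from its second array alone it was −0.81 (adjusted p = 0.0466, limma, where 18.7% of probes were called). Of 20 alternatives 5 passed the threshold. One of the 2 spots on the second array of CYGB+ replicate 3 carried an outlier flag and was left out.

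Slide moved with the SERPINE2 values. NCE replicate 1 gave 9.18 and 9.26 on its slide 1 arrays but 8.81 on the slide that held the CYGB+ arrays, where these read 8.53 to 9.14. With slide as a block the difference shrank to −0.10 ± 0.26 (SE, adjusted p = 0.954, limma), and within the shared slide it was 0.05. Both depend on 1 NCE array of that slide, from replicate 1, the lowest NCE replicate, so slide and replicate are mixed in them. Within NCE replicate 1 the shift from slide 1 to that slide was −0.41. For replicate 1 alone on that slide the difference between groups was −0.14. Without the NCE array of that slide, so that each group lay on its own, it was −0.81 (adjusted p = 0.0406, limma). The lower SERPINE2 signal in CYGB+ cannot be told apart from the slide.

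**Figure D2:**
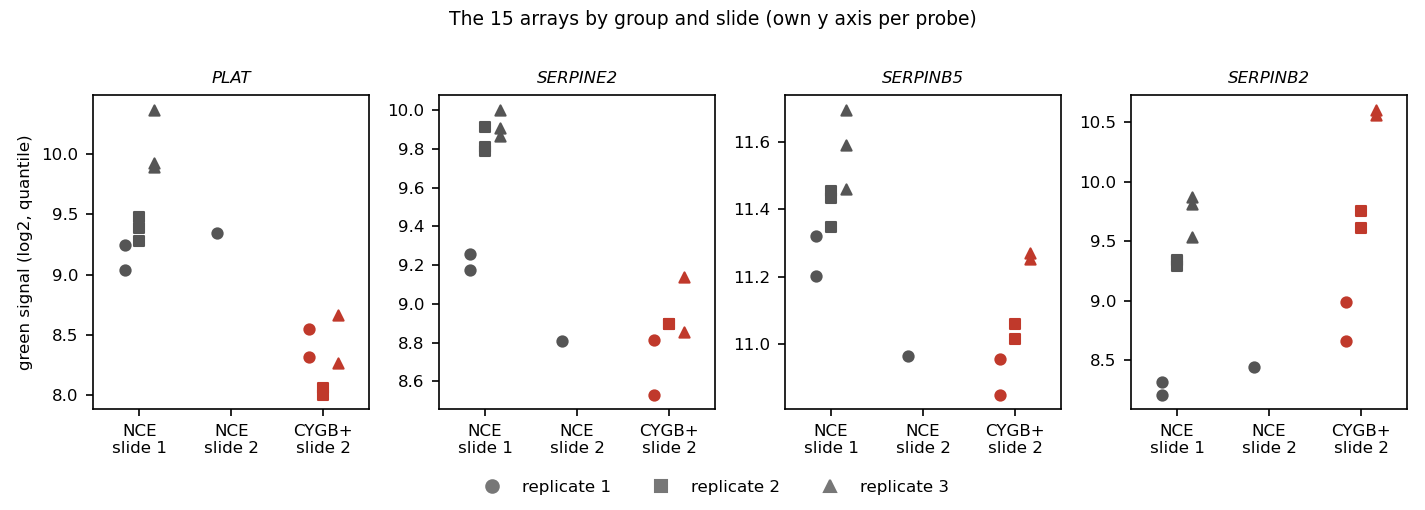
Log2 green signal of PLAT, SERPINE2, SERPINB5 and SERPINB2 on each of the 15 arrays, by group and slide, with a separate vertical axis for each probe and symbols for the biological replicate. The single NCE array on slide 2 stayed with the NCE arrays for PLAT (9.34) and SERPINB2 (8.44) but read within the range of the CYGB+ arrays for SERPINE2 (8.81) and SERPINB5 (10.96).

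SERPINB2, an inhibitor of urokinase that is largely kept inside the cell, was higher in CYGB+ within each pair of replicates. It read 8.32, 9.32 and 9.74 in NCE and 8.82, 9.68 and 10.58 in CYGB+ replicates 1 to 3. The groups overlapped widely, since replicate 1 was low and replicate 3 high in both. Without pairing, the difference of 0.57 ± 0.50 (SE) did not pass (adjusted p = 0.497, limma). With the replicate number as a block it did, at 0.57 ± 0.12 (SE, 1.48-fold, adjusted p = 0.0376, limma), and the signal was higher in 3 of 3 pairs, by 0.50, 0.36 and 0.84. That equal numbers mark true pairs is not shown, since some unequal numbers correlated about as well over all tested probes. On the shared slide CYGB+ replicate 1 exceeded NCE replicate 1 by 0.39. The direction was the same with slide as a block (0.98 ± 0.63, SE, adjusted p = 0.588, limma). Without NCE replicate 1 the unpaired difference was 0.17, and without CYGB+ replicate 3 it was 0.13. Repeat arrays of 1 replicate differed little for this probe, with an SD of 0.13, against 0.81 between replicates of a group.

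SERPINB3 and SERPINB4, inhibitors of cysteine and chymotrypsin-like proteases respectively, were read close to background. SERPINB3 measured 5.99, 6.06 and 6.20 in NCE replicates 1 to 3. In CYGB+ replicates 1 to 3 it measured 6.43, 6.33 and 6.45. It was not well above background on any of the 9 NCE arrays but was on 5 of the 6 CYGB+ arrays, so that it entered the test only through CYGB+, and it was at least 1.22-fold higher there (adjusted p = 0.0789, limma, for the fitted difference of 0.32 ± 0.10, SE). The bound sets the mean of the CYGB+ replicates against, on each NCE array, the higher of this probe's own signal and the lowest signal among probes well above background. It takes no account of the spread between replicates and so gives no minimum for the difference. All 6 CYGB+ arrays, from 6.24 to 6.56, were above all 9 NCE arrays, from 5.94 to 6.23, and the difference for replicate 1 on the shared slide was 0.39.

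The size of the SERPINB3 difference depended on the background step, because an offset of 50 units added to every signal compresses dim probes. With no offset the difference was 1.02 ± 0.22 (SE, adjusted p = 0.0253, limma, where 10.7% of probes were called), and with the scanner software's own background subtraction it was 1.80 ± 0.36 (SE, adjusted p = 0.0275, limma, where 9.02% were called). SERPINB4 read 6.01, 6.06 and 6.11 in NCE and 6.29, 6.30 and 6.37 in CYGB+ replicates 1 to 3. It was well above background on 0 of 9 NCE and 2 of 6 CYGB+ arrays and was therefore not tested. With all 42405 probes tested its difference was 0.26 ± 0.05 (SE, adjusted p = 0.0431, limma, where 4.79% of probes were called). The same bound came to 1.16-fold. It gives no minimum here either, and SERPINB4 was not well above background on most CYGB+ arrays. The SERPINB3 and SERPINB4 probes cannot be taken as separate readings, since transcripts of the 2 genes are so alike and cross-hybridisation was not tested.

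SERPINB5, maspin, was somewhat lower in each pair. Its values were 11.16, 11.41 and 11.58 in NCE replicates 1 to 3. They were 10.90, 11.04 and 11.26 in CYGB+ replicates 1 to 3. The groups overlapped, since CYGB+ replicate 3 lay above NCE replicate 1. The difference of −0.32 ± 0.14 (SE) did not pass (adjusted p = 0.202, limma), and with the replicate block the adjusted p was 0.0759. With slide as a block the sign turned (0.05 ± 0.17, SE, adjusted p = 0.964, limma), as it did within the shared slide (0.10). For replicate 1 alone on that slide the difference was −0.06, so the sign did not turn there. NCE replicate 1 itself read 0.30 lower on that slide than on slide 1, a shift of the same size as the difference between the groups.

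SERPINB13, headpin, an inhibitor of lysosomal cysteine proteases, varied most in 1 replicate. It read 6.68, 6.29 and 6.35 in NCE replicates 1 to 3. In CYGB+ replicates 1 to 3 it read 7.49, 6.52 and 6.59. Replicate 1 was the highest in both groups, and CYGB+ replicate 1 rested on 1 array at 8.03 and another at 6.95, of which the former was the array that stood apart. The difference was 0.43 ± 0.26 (SE, adjusted p = 0.334, limma), 0.25 from the second array alone, 0.12 without CYGB+ replicate 1 and 0.00088 within the shared slide. That last value sets an NCE array of replicate 1 against all CYGB+ replicates. For replicate 1 alone on that slide the difference was 0.62, which includes the array that stood apart. The difference over all replicates was larger with no offset (0.80, adjusted p = 0.244, limma) and with the processed signal (1.09, adjusted p = 0.225, limma), and no alternative passed the threshold. The probe was well above background on 4 of 9 NCE and 6 of 6 CYGB+ arrays.

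**Figure D3:**
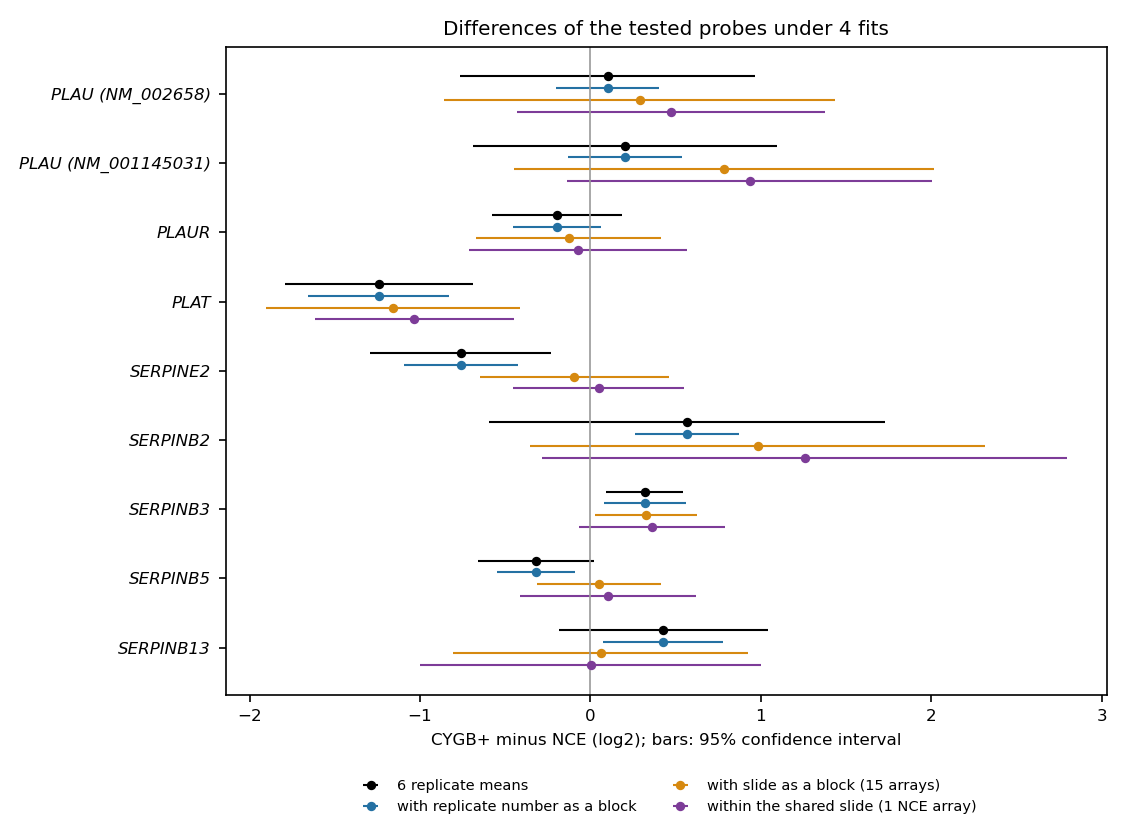
CYGB+ minus NCE on the log2 scale for the 9 tested probes under 4 fits, with points for the estimate and bars for its 95% confidence interval. The PLAT estimates stayed between −1.24 and −1.03. Those of SERPINE2 were −0.76 without slide and near 0 with it, where slide is read largely from 1 NCE array, of replicate 1.

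At most of these probes the replicates fell in the same order. For 7 of the 10 probes (both for PLAU, and PLAUR, SERPINE2, SERPINB2, SERPINB4 and SERPINB5) replicate 3 was the highest and replicate 1 the lowest in NCE as well as in CYGB+. SERPINB4 was not tested. Of the 9 tested member probes 6 had that pattern, against 4.52% of all tested probes, and the PLAU probes read the same gene. The replicate numbers carry no order, so this order was read from the members' own values and its share is no test. That equal numbers mark the same extraction occasion in both groups is not shown. What set the replicates apart was not tested. Between replicates of a group the SD was 0.60 and 0.62 at the PLAU probes, and between repeat arrays of a replicate 0.26 and 0.39.

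The members SERPINB5, SERPINB13, SERPINB4, SERPINB3 and SERPINB2 lie in a row of 10 clade B serpin genes on chromosome 18, which also holds SERPINB12, SERPINB11, SERPINB7, SERPINB10 and SERPINB8. Of these 10 genes 6 were tested and 0 were called (limma on replicate means), 1 of them, SERPINB3, had an unadjusted p under 0.05, and the methods' t-test called 0. Within pairs, SERPINB13, SERPINB4, SERPINB3, SERPINB7, SERPINB2 and SERPINB8 had higher values in CYGB+ in all 3 pairs. SERPINB5 and SERPINB10 had lower values in all 3, SERPINB10 by small amounts (−0.00086, −0.12 and −0.08). SERPINB4 and SERPINB10 were not tested, so the shares that follow do not cover them. Among all tested probes 26.6% were higher in all 3 pairs and 26.6% lower. SERPINB13 differed by 0.06 and SERPINB8 by −0.01 with slide as a block. SERPINB7, a neighbour of SERPINB2, differed by 0.22 ± 0.09 (SE, adjusted p = 0.185, limma). SERPINB12, SERPINB11 and SERPINB10 were near background in both groups.

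**Figure D4:**
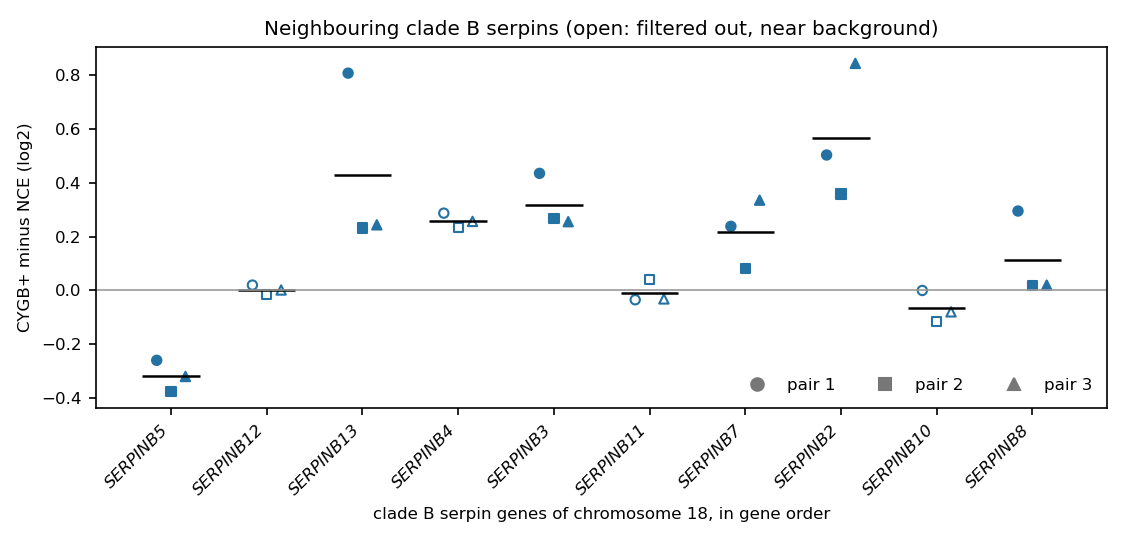
CYGB+ minus NCE on the log2 scale for the 10 clade B serpin genes of chromosome 18 in their gene order; symbols are the 3 same-numbered replicate pairs, horizontal lines the mean difference, and open symbols genes that were near background and not tested. Pair differences ranged from −0.38 at SERPINB5 to 0.84 at SERPINB2.

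Lists of genes around these members were read in the same fit, where 10.9% of all tested probes were called, 5.57% higher and 5.38% lower. Of 23 plasminogen system partners (binding sites, activators and other inhibitors) 22 had a probe and 14 were tested, of which 0 were higher and 2 lower in CYGB+, with a median difference of 0.05 against 0.01 over all tested probes. At an unadjusted p under 0.05 (limma) 1 partner was higher, the coagulation factor F12, which was named after its value was seen, and the methods' t-test called 0 higher. THBD (thrombomodulin), a thrombin receptor of the cell surface, measured 11.29 ± 0.24 in NCE and 10.53 ± 0.32 in CYGB+ (SD, n = 3, limma adjusted p = 0.0479). With slide as a block it was lower by a larger amount (−1.10, adjusted p = 0.0235). The other was ITGB6, an integrin subunit of epithelia, at −0.48 (adjusted p = 0.0414), which is below the 1.5-fold set for naming and is given because the count is small. With slide as a block ITGB6 was not called (−0.37, adjusted p = 0.279, limma). PLG, plasminogen itself, was not well above background in either group. The plasminogen-binding pair ANXA2 and S100A10 differed by −0.26 (adjusted p = 0.166) and −0.06 (adjusted p = 0.793).

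Among the other serpins, proteases and substrates, 4 genes passed the test, which 10.9% of all tested probes passed. The lists are too small to set their shares apart from that. Of 8 other clade B serpins 4 were tested and 0 called by limma or by the methods' t-test, with 0 at an unadjusted p under 0.05 and a median difference of 0.19. Of 13 serpins of other clades 5 were tested, of which 1 was higher and 1 lower. SERPINA3 (antichymotrypsin) measured 7.65 ± 0.16 in NCE and 8.59 ± 0.11 in CYGB+ (SD, n = 3, limma adjusted p = 0.00672), and its 3 probes were all called higher. SERPINA1 (antitrypsin, an inhibitor of neutrophil elastase) was lower by −0.63 ± 0.14 (SE, adjusted p = 0.0346, limma). Of 11 proteases known as targets of these serpins 6 were tested, and CTSL, cathepsin L, a lysosomal cysteine protease that SERPINB3 inhibits, was the called one, 0.64 ± 0.15 higher (SE, adjusted p = 0.0372, limma). PRSS8, the membrane-anchored protease prostasin, missed the threshold (−0.46, adjusted p = 0.0622) and was called lower with the replicate block (adjusted p = 0.0331) and with slide as a block (−0.87, adjusted p = 0.0354). Of 10 substrates of fibrinolysis and matrix breakdown 6 were tested, and MMP1, a collagenase whose precursor plasmin can activate, rose from 6.86 ± 0.13 to 8.27 ± 0.19 (SD, n = 3, limma adjusted p = 0.00382). LAMA3, a laminin chain, was called lower with the replicate block (−0.53, adjusted p = 0.0284, against 0.129 without it). MMP1 and SERPINA3 were also called with slide as a block (1.38, adjusted p = 0.000713, and 1.51, adjusted p = 0.0306), and SERPINA1 and CTSL were not (adjusted p = 0.207 and 0.268). Over the lists together 3 genes were higher and 3 lower, 5 were lower with the replicate number as a block (those 3, PRSS8 and LAMA3), and with any 1 replicate left out 2 to 4 were higher and 0 to 1 lower.

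**Figure D5:**
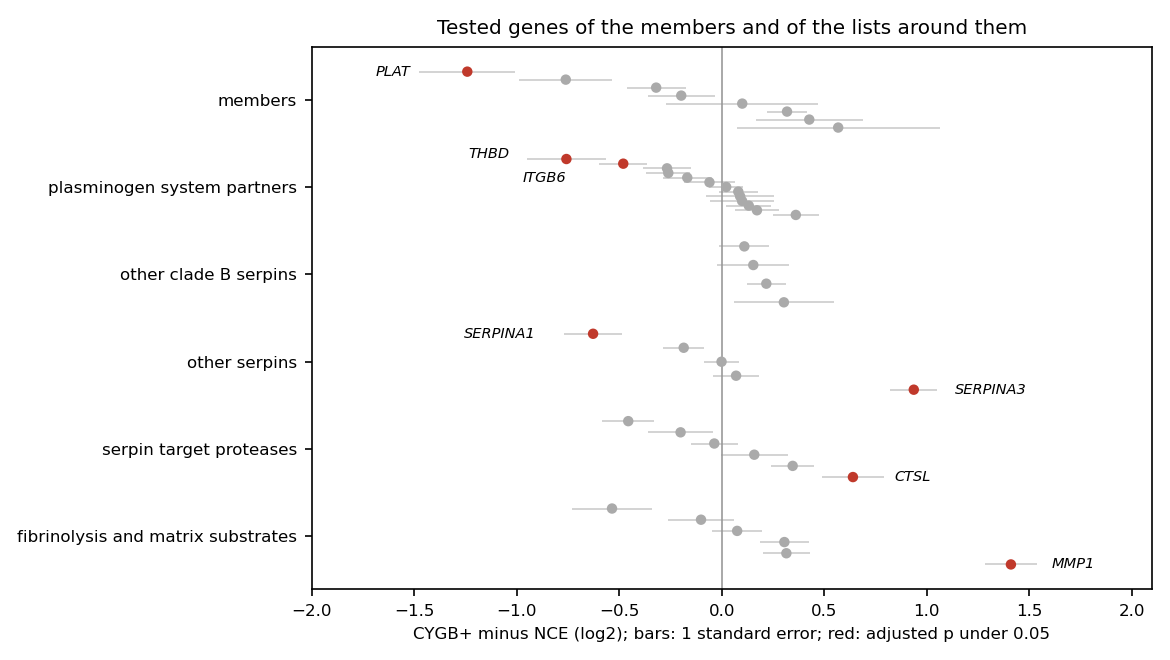
CYGB+ minus NCE on the log2 scale for tested genes of each list, 1 point per gene (the brightest probe) with bars of 1 standard error; red points passed an adjusted p of 0.05. The marker lists are not drawn; MMP1 lies at 1.41 and PLAT at −1.24.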

How the data were processed

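RNA from 15 arrays (9 NCE, 6 CYGB+; Agilent SurePrint G3 Human Gene Expression) was measured by the authors with Agilent Feature Extraction 10.7.3.1. The deposited scanner files give green and red intensity values per spot, with no gMeanSignal column, so the median green signal was used in place of the planned mean signal. The labels give Cy3 for every sample, while the study's methods assign Cy5 to the control cells; the red channel was not used. The deposited value table holds natural log values of 15031 non-control probes, each centred near 0 on the CYGB+ arrays, which ran in the same direction as the scanner files; it served as an alternative, and only 5 of the 10 member probes are in it. How the authors chose its probes and centred them is not given in the sources used here. Spot flags (saturation, outlier, well above background) were read as other columns of the files deposited by the authors.

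The median green signal was corrected with normexp (local background, offset 50), control spots were dropped, and values were log2 transformed. Arrays were then quantile normalised, as the study's methods state for the 1-colour data. Spots with outlier flags were dropped after this step, so they took part in the normalisation. The remaining spots of a probe were averaged, then arrays of a biological replicate. Probes were tested if over 50% of their spots were well above background on over 50% of the arrays of a group. Probes were named through their accession with a RefSeq table (GRCh38.p14), which matched 25422 of 42405 probes. The 6 replicate means were compared with limma 3.58.1 in R 4.3.3 (lmFit, eBayes, Benjamini-Hochberg over 22008 probes, threshold 0.05). Nothing in the labels says that replicates were separate cultures beyond separate extraction occasions, so p-values measure the spread between those. The number of arrays limits the precision.

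Biological replicate numbers were used to pair the groups: deviations from the group means correlated at 0.213, 0.230 and 0.304 for same-numbered replicates, each over 0.1. Unequal numbers gave 0.210, 0.292 and 0.164 for NCE 1 with CYGB+ 2, NCE 2 with CYGB+ 3 and NCE 3 with CYGB+ 1. The other combinations gave −0.500, −0.408 and −0.493. The correlations therefore do not show that equal numbers mark true pairs. A fit with the replicate number as a block is given where it changed a call. Alternatives covered background, scaling, filters, slide, replicate block, the methods' t-test, arrays as samples, the deposited table and leaving out replicates; 3 alternatives were added after the data were seen. The members and lists were chosen with earlier results of these data known. Named list genes were those called with at least a 1.5-fold difference, plus PLG, ANXA2 and S100A10 whatever their values; 1 gene that the rule names is not reported here. PRSS8, LAMA3, ITGB6 and the marker genes were named outside this rule, after their values were seen. For lists, the brightest probe stood for a gene. On simulated data of 41553 probes, a wider set than the 22008 tested, so that the adjustment ran over more probes, 80% of probes changed by 1 on the log2 scale and 93% of those changed by 1.5 were recovered. In the same run 16 unchanged probes were called. These data held no slide shift, and the widest replicate spreads were capped. The rates therefore do not carry over to arrays where slide and group nearly coincide.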

Additional observations from a re-analysis of the deposited data

Results flagged for a closer look

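The red channel of the arrays, which no label describes and no comparison used, carried signal at these genes. In it 8 of the 10 member probes were well above background on all 15 arrays, NCE and CYGB+ alike. What RNA it held was not settled by the labels, and its values were not compared between groups.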

How the results depend on the processing

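The lower PLAT signal was negative in all 20 alternatives fitted, from −1.41 to −0.98, and passed the threshold in 14 of them. Member probes called higher numbered 0 in the reported fit, and 1 with the processed signal (either scaling), with offset 0, without a filter, with the replicate block and with the 15 arrays as samples; SERPINB3 was the one with the processed signal, offset 0 and 15 arrays, SERPINB4 without a filter and SERPINB2 with the block. Member probes called lower numbered 1 in the reported fit, 2 with the replicate block, with each group on 1 slide and with CYGB+ replicate 1 from its second array, 3 with the 15 arrays as samples, and 0 without a filter, with the slide block, within the shared slide, with the methods' t-test and in the deposited table, which lacks PLAT. Leaving out each replicate gave 0 to 2 lower. The replicate block changed no other member's call. The deposited table and the stricter filter left out the members they do not hold.

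Over all probes, 1225 were higher and 1183 lower. The counts were 798 and 721 with normexp and the 75th percentile, 280 and 442 with the slide block, 3 and 2 within the shared slide, 384 and 320 with the methods' t-test, 3114 and 3006 with 15 arrays, 764 and 680 in the deposited table, and 2102 and 2016 with CYGB+ replicate 1 from its second array; the processed signal at the 75th percentile gave 742 lower. With the slide block 38.8% of calls were higher, against 50.9%. The replicate block gave 1479 and 1495. Leaving out each replicate gave 232 to 1276 higher and 242 to 1139 lower, the fewest without NCE replicates 2 and 3.

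Pathway list genes called numbered 3 higher and 3 lower in the reported fit, where 5.57% of all tested probes were higher and 5.38% lower. Higher calls were 0 within the shared slide, 7 with 15 arrays, 6 with CYGB+ replicate 1 from its second array and 2 to 4 with a replicate left out. Lower calls were 1 with either 75th percentile scaling, 0 without a filter, within the shared slide and with the methods' t-test, 5 with the replicate block, 8 with 15 arrays and 0 to 1 with a replicate left out.

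With a replicate left out, the difference ranged from −0.158 to 0.497 for PLAU (NM_002658), from −0.0630 to 0.560 for PLAU (NM_001145031) and from −0.311 to 0.222 for CYGB. Their signs turned without NCE replicate 1 and without CYGB+ replicate 3 (both PLAU probes), without NCE replicate 2 (PLAU NM_002658 and CYGB) and without CYGB+ replicate 1 (CYGB). Signs also turned for SERPINE2 within the shared slide (0.0485), for SERPINB5 with the slide block (0.0520) and within the shared slide (0.103), and for CYGB with the processed signal at the 75th percentile (0.0912) and in the deposited table (0.0467). The cause was not tested.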
